A study of Equus caballus with 20 samples.

Results

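CFTR and the channels, carriers and pumps that work with it in epithelial fluid secretion were followed as a set of 9 genes: CFTR, ANO1, SLC12A2, ATP1B1, SCNN1A, SCNN1B, SCNN1G, AQP5 and CA12. They were chosen by gene name, not by a threshold, from the 26740 features of the table, where all 9 were found. The set was put together with earlier results from these libraries known, so its levels and differences are a description and are given as rows of a test over the whole table. RNA sequencing had been done on epithelial cells of the mare's oviduct, taken from Warmblood mares 4 days after ovulation at the junction of ampulla and isthmus. There were 5 biological replicates each of pregnant mares on the side of ovulation (pregnant ipsilateral, PI), pregnant mares on the other side (pregnant contralateral, PC), cyclic mares on the side of ovulation (cyclic ipsilateral, CI) and cyclic mares on the other side (cyclic contralateral, CC). Libraries are named by group and replicate number. Levels are TMM-normalized counts, in which the reads of a library are multiplied by 1 factor that puts the libraries on a common scale.

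Fluid of the oviduct is made largely by its epithelium, and gametes and the early embryo are bathed in it. In a secreting epithelium, the sodium pump in the basolateral membrane keeps sodium low in the cell, a sodium, potassium and chloride cotransporter uses that gradient to load chloride, and chloride and bicarbonate leave through apical channels, with sodium and water following. The epithelial sodium channel works the other way and takes sodium, and water with it, back out of the lumen. CFTR is the chloride and bicarbonate channel opened by cyclic AMP and protein kinase A, and loss of its function causes cystic fibrosis in humans.

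Recovered reads per library ran from 2795168 to 10126484. Where a gene had no read, up to 3 reads are allowed by counting error alone, and 3 reads were worth between 1.75 (PC4) and 7.03 (PI1) normalized counts. In PI1, PI4 and CI3 a single feature without a symbol held 14.4%, 27.8% and 15.4% of the reads, so results were also computed without them. The epithelial genes EPCAM, an adhesion molecule of epithelia, and CDH1, the cadherin of epithelial junctions, averaged 1794 ± 388 and 2977 ± 887 normalized counts (SD, n = 20). PAX8, a transcription factor of oviduct secretory cells, averaged 1828 ± 287, and FOXJ1, the regulator of motile cilia, 4409 ± 914. The secretory marker OVGP1 was near the floor at 4.84 ± 3.87 normalized counts. The leukocyte gene PTPRC (255 ± 142), the fibroblast collagen COL1A1 (359 ± 350) and the smooth muscle myosin MYH11 (330 ± 312) were also read, so the samples held other cells beside epithelium.

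Of the 9 genes, 7 passed the filter of more than 1 CPM (counts scaled to a common library total) in at least 5 libraries. CFTR, ANO1, SLC12A2, ATP1B1, SCNN1A and AQP5 were above 1 CPM in all 20 libraries and SCNN1G in 17. SCNN1B and CA12 were below the filter. Across the 20 libraries the standard deviation of the log2 level was 0.31 for SLC12A2, 0.41 for SCNN1A, 0.42 for ATP1B1, 0.49 for CFTR, 0.53 for ANO1, 0.67 for SCNN1G and 0.88 for AQP5, against a median of 0.40 over the 14692 genes kept. AQP5 thus varied more than 93.3% of the genes kept, and SLC12A2 more than 32.3%.

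CFTR had lower mean levels in the pregnant mares on both sides, by differences that did not pass the test over all genes. It stood at 216, 185, 292, 181 and 344 normalized counts in PI1 to PI5, against 314, 337, 447, 535 and 496 in CI1 to CI5. In PI, 4 of the 5 libraries lay below every CI library, and PI5 lay just above CI1 and CI2. In that comparison 0.402% of the genes kept had every PI library below every CI library and 0.191% every one above. CFTR met neither, and the share of genes with 4 of 5 libraries below was not counted. On the other side it stood at 252, 256, 284, 192 and 285 in PC1 to PC5, against 358, 348, 535, 479 and 387 in CC1 to CC5. All 5 PC libraries lay below all 5 CC libraries, as 0.272% of the genes kept did in that comparison. The means were 243 ± 71.6 in PI and 426 ± 97.1 in CI, and 254 ± 37.7 in PC and 422 ± 81.6 in CC (SD, n = 5). From low to high the means thus ran PI, PC, CC and CI, the 2 pregnant groups lying together and the 2 cyclic groups together.

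On the log2(value + 3.03) scale the CFTR difference was −0.82 ± 0.20 for PI minus CI (SE), a ratio of 0.568, and −0.72 ± 0.20 for PC minus CC, a ratio of 0.608. Neither passed limma's test across all genes (adjusted p = 0.657 for PI against CI and adjusted p = 0.970 for PC against CC), although CFTR ranked 11th and 22nd of 14692 genes by p. The counting method DESeq2 gave adjusted p = 0.361 and 0.158 on the recovered reads. In these 2 comparisons limma called 0% of all genes, with 514 and 669 at an unadjusted p under 0.05, and edgeR called 0, with 495 and 844. DESeq2 called 0 (560 unadjusted) for PI against CI and 6 (950 unadjusted) for PC against CC, none of them among the 9 genes. Leaving out 1 library at a time kept the CFTR difference between −0.95 and −0.72 for PI minus CI and between −0.78 and −0.62 for PC minus CC. Without PI1, PI4 and CI3 the first was −0.62.

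The 2 sides are not separate evidence in the pregnant mares. PI and PC libraries of the same number deviated together over all genes, with correlations of 0.53 to 0.70, and for CFTR number 4 was the lowest and number 5 the highest on both sides. Beside the CFTR levels, multiciliated cell markers had a higher median summed level in pregnant mares, with overlapping ranges. These were 59103 to 78721 normalized counts over 10 genes in PI, 57224 to 77242 in PC, 43380 to 61804 in CI and 45926 to 67809 in CC. DNAH5 and DNAH9, averaging 23077 and 18696 over the 20 libraries, made up most of that sum. All 10 genes had a log2 difference above 0 in both pregnancy comparisons. Stromal markers had a log2 difference below 0 in all 8 genes of the list in both pregnancy comparisons, with summed levels of 916 to 6335 in PI, 1488 to 4252 in PC, 2067 to 4153 in CI and 1137 to 6880 in CC. Leukocyte markers had one above 0 in 7 of 8 kept genes for PI against CI and in 8 of 8 for PC against CC, with sums of 487.8 to 1637 in PI, 852.5 to 2776 in PC, 482.7 to 1830 in CI and 556.1 to 1168 in CC. Of all genes, 51.9% had a log2 difference below 0 for PI against CI and 48.2% for PC against CC. Limma called none of these marker genes. Secretory cell markers (9 genes) summed to 3815 to 8730 in PI, 4078 to 6917 in PC, 4332 to 8146 in CI and 3853 to 6183 in CC. The part of these cell types in the CFTR levels was not tested. In bulk samples, fewer cells of a type and less RNA per cell cannot be told apart.

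**Figure D1:**
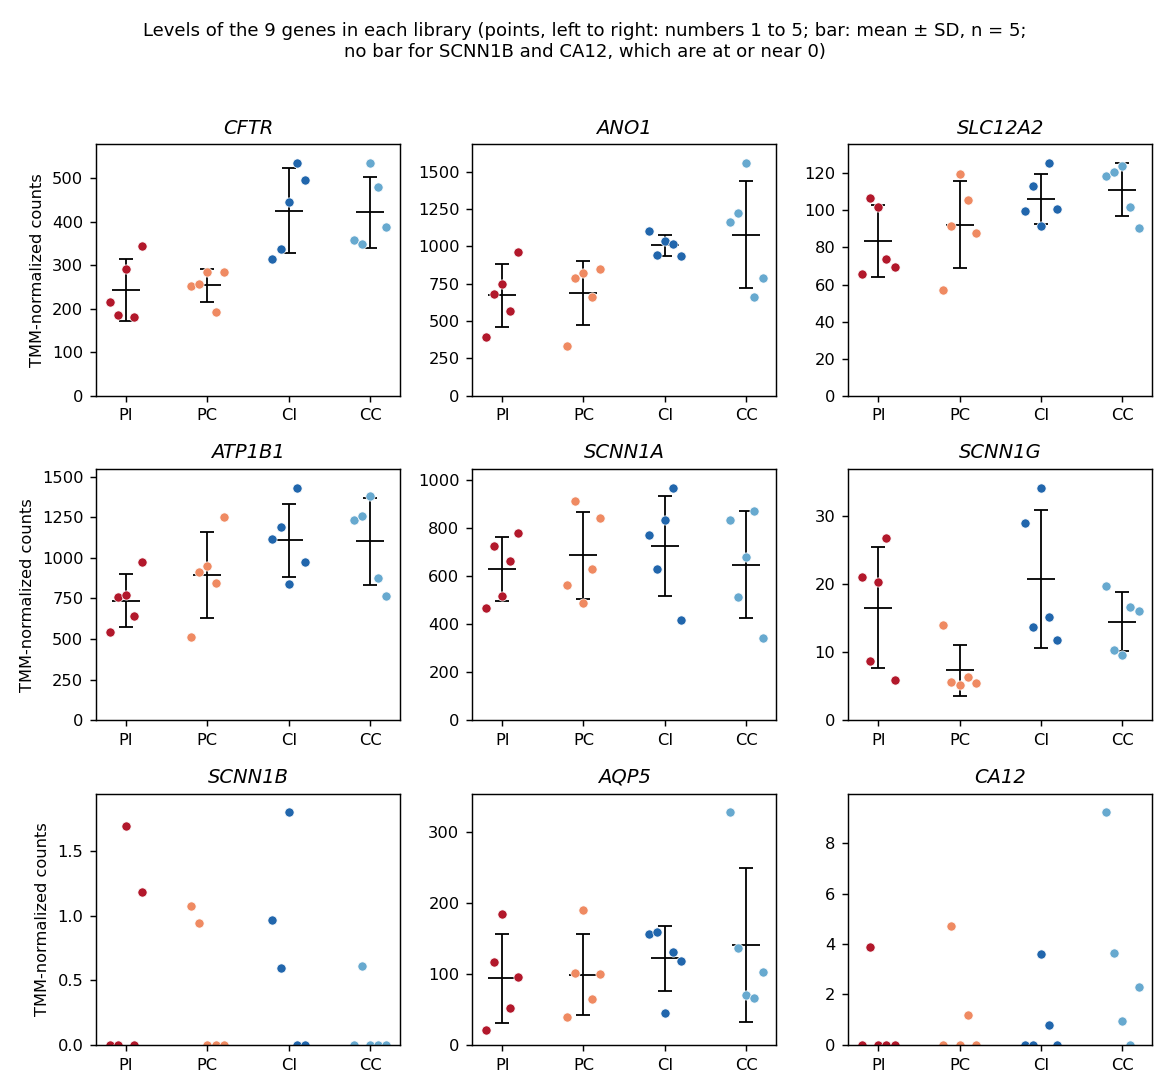
TMM-normalized counts (y axes, starting at 0) of the 9 genes in every library of the 4 groups (x axes: PI pregnant ipsilateral, PC pregnant contralateral, CI cyclic ipsilateral, CC cyclic contralateral). Points are libraries 1 to 5 from left to right and bars are means ± SD over 5 libraries, with no bar for SCNN1B and CA12. All 5 CFTR points of PC, at 192 to 285, lie below those of CC, at 348 to 535, whereas SCNN1A overlaps between all groups.

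ANO1, the calcium-activated chloride channel that offers chloride a second apical exit, also had lower means in the pregnant than in the cyclic groups. Within groups, its libraries did not keep the order they had for CFTR. It stood at 396, 682, 751, 565 and 964 normalized counts in PI1 to PI5, against 1102, 940, 1036, 1018 and 937 in CI1 to CI5. Only PI5 reached into the narrow CI range. In PC1 to PC5 it stood at 331, 787, 819, 659 and 846, against 1162, 1225, 1558, 660 and 789 in CC1 to CC5. There the groups overlapped through CC4 and CC5, the lowest CC libraries. The log2 difference was −0.64 ± 0.26 for PI minus CI and −0.65 ± 0.26 for PC minus CC (SE), which did not pass (limma, adjusted p = 0.999 and adjusted p = 1). Without PI1, PI4 and CI3 the first was −0.33, and without PC1 the second was −0.41.

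Chloride loading and the sodium pump come next. SLC12A2, the sodium, potassium and chloride cotransporter also called NKCC1, stood at 65.6, 107, 102, 73.8 and 69.7 normalized counts in PI1 to PI5, against 99.5, 113, 91.9, 126 and 101 in CI1 to CI5. It stood at 57.1, 91.4, 120, 106 and 87.6 in PC1 to PC5, against 119, 121, 124, 102 and 90.8 in CC1 to CC5. Its groups overlapped on both sides, with log2 differences of −0.35 ± 0.19 for PI minus CI and −0.29 ± 0.19 for PC minus CC (limma, adjusted p = 0.999 and adjusted p = 1). Without PC1 the second was −0.13.

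ATP1B1, the beta subunit that carries the sodium pump to the membrane, stood at 544, 758, 768, 643 and 972 normalized counts in PI1 to PI5, against 1115, 1187, 836, 1431 and 973 in CI1 to CI5. In PI, 4 of 5 libraries were below every CI library, PI5 lying between CI3 and CI5. The share of all genes with 4 of 5 libraries below was not counted. On the other side it stood at 514, 910, 949, 846 and 1249 in PC1 to PC5, against 1235, 1254, 1380, 873 and 766 in CC1 to CC5, with broad overlap. The log2 differences were −0.59 ± 0.22 for PI minus CI and −0.32 ± 0.22 for PC minus CC (limma, adjusted p = 0.999 and adjusted p = 1), the second at −0.14 without PC1.

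ANO1 and ATP1B1 kept the steadiest ratio to each other of all 21 pairs among the 7 genes. The standard deviation of their log2 ratio over the 20 libraries was 0.25, below that of either gene alone. ATP1B1 with SLC12A2 followed at 0.27 and SLC12A2 with ANO1 at 0.37. The ratio of CFTR to these genes was less steady, at 0.42 with ATP1B1, 0.44 with ANO1 and 0.46 with SLC12A2. With SCNN1A, SCNN1G and AQP5 it stood at 0.61, 0.77 and 0.90. AQP5 and SCNN1G had the least steady ratio, at 1.20. The measure also grows with the spread of each gene alone, which was 0.88 for AQP5. It therefore does not rank how closely genes moved together. These values describe libraries that share groups and, in the pregnant mares, replicate numbers.

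The epithelial sodium channel is built of alpha, beta and gamma subunits, encoded by SCNN1A, SCNN1B and SCNN1G. SCNN1A, the pore-forming subunit needed for current, had smaller log2 differences than CFTR in both pregnancy comparisons, but no test set the genes against each other. It stood at 466, 725, 517, 663 and 781 normalized counts in PI1 to PI5, against 773, 632, 834, 970 and 420 in CI1 to CI5, and at 565, 914, 487, 629 and 841 in PC1 to PC5, against 834, 512, 681, 873 and 343 in CC1 to CC5. All 4 groups overlapped. The log2 difference was −0.17 ± 0.26 for PI minus CI, with a 95% interval of −0.71 to 0.36, and 0.12 ± 0.26 for PC minus CC, with an interval of −0.42 to 0.66 (limma, adjusted p = 0.999 and adjusted p = 1). The first was −0.36 without CI5, −0.06 without CI4, −0.07 without PI1, −0.11 without PI3 and −0.11 without CI3, and −0.01 without PI1, PI4 and CI3 together. The second turned to −0.087 without CC5, the CC library with the lowest SCNN1A, and was between 0.01 and 0.25 when any other library was left out.

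The count of CFTR per count of SCNN1A had a median of 0.440 in PI, 0.339 in PC, 0.536 in CI and 0.681 in CC. Its absolute size depends on the lengths of the 2 transcripts, so only libraries are compared. The ratio was 0.462, 0.255, 0.565, 0.273 and 0.440 in PI1 to PI5, against 0.406, 0.533, 0.536, 0.552 and 1.18 in CI1 to CI5. In PC1 to PC5 it was 0.446, 0.280, 0.583, 0.305 and 0.339, against 0.430, 0.681, 0.785, 0.549 and 1.13 in CC1 to CC5. The groups overlapped on both sides, and the ratio was highest in CI5 and CC5.

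SCNN1G, the gamma subunit, was far less read, with 5 to 30 reads in each library. It stood at 21.1, 8.75, 20.4, 26.8 and 5.91 normalized counts in PI1 to PI5, and at 14.0, 5.66, 5.20, 6.43 and 5.54 in PC1 to PC5. The cyclic groups stood at 29.0, 13.7, 34.2, 15.2 and 11.8 in CI1 to CI5 and at 19.8, 10.4, 9.60, 16.7 and 16.1 in CC1 to CC5. PC was the lowest group, at 7.37 ± 3.73, against 16.6 ± 8.88 in PI, 20.8 ± 10.1 in CI and 14.5 ± 4.36 in CC (SD, n = 5). The log2 difference was −0.32 ± 0.36 for PI minus CI and −0.78 ± 0.36 for PC minus CC (limma, adjusted p = 0.999 and adjusted p = 1). The first was −0.07 without PI5, −0.17 without PI2, −0.19 without CI1, −0.13 without CI3 and −0.51 without PI4, so single libraries set its size.

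SCNN1B, the beta subunit, had 9 reads in all, at most 2 in a library, and 0 reads in 12 of the 20 libraries. Each 0 allows up to 1.75 to 7.03 normalized counts depending on the library, and differences between its groups were not tested, as it was below the filter. In the RefSeq gene table of the horse assembly TB-T2T, SCNN1B and SCNN1G are next to each other, and 271 reads fell on SCNN1G. Reads of alpha and gamma transcripts with hardly any of beta were thus found in all 4 groups.

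**Figure D2:**
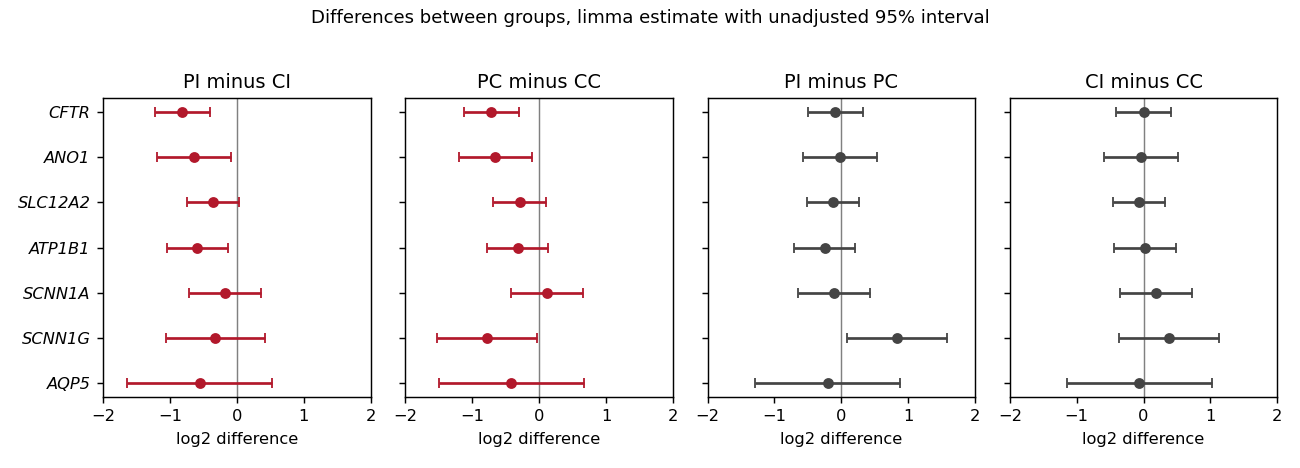
Log2 differences (x axes) of the 7 genes that passed the filter in the 4 comparisons of groups, as limma estimates with unadjusted 95% intervals. The fit did not pair libraries by number. In the 2 pregnancy comparisons CFTR lies at −0.82 and −0.72 with intervals below 0, while in the 2 comparisons of sides it lies at −0.09 and 0.00.

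AQP5, an apical water channel of secretory glands and airways, was the most variable of the 7 genes. It stood at 21.1, 117, 184, 52.0 and 95.7 normalized counts in PI1 to PI5, against 156, 159, 45.0, 130 and 119 in CI1 to CI5. In PC1 to PC5 it stood at 38.8, 101, 190, 65.5 and 99.8, against 328, 136, 71.0, 66.8 and 102 in CC1 to CC5. The groups overlapped throughout, and the pregnant libraries kept the same order on both sides, from number 3, the highest, through 2, 5 and 4 to number 1. The log2 differences of −0.56 ± 0.52 for PI minus CI and −0.42 ± 0.52 for PC minus CC were no larger than about 1 standard error (limma, adjusted p = 0.999 and adjusted p = 1). The first was −0.13 without PI1 and −0.87 without PI3 or CI3, and the second −0.05 without CC1, −0.14 without PC1 and −0.69 without PC3.

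CA12, a carbonic anhydrase on the cell surface that interconverts carbon dioxide and bicarbonate, was at or near 0 in every group. It had 4 reads in PI, 7 in PC, 3 in CI and 16 in CC, and 0 reads in 11 of the 20 libraries. The highest library was CC1, with 7 reads, and 4 of the 5 CC libraries had a read. CA12 was below the filter, so differences between its groups were not tested.

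The 7 genes that passed the filter are summarised by counts, beside the same over all genes. For PI against CI, 7 of 7 had a log2 difference below 0, with a median of −0.56, while 51.9% of all genes were below 0, with a median of −0.01. For PC against CC, 6 of 7 were below 0, with a median of −0.42, while 48.2% of all genes were, with a median of 0.01. At an unadjusted p under 0.05, CFTR, ANO1 and ATP1B1 were lower for PI against CI, where 2.00% of all genes were lower at that level. For PC against CC they were CFTR, ANO1 and SCNN1G, where 1.80% were. None of the 7 was higher at that level in either, where 1.50% of all genes were for PI against CI and 2.75% for PC against CC. None of these passed adjustment over all genes.

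Ipsilateral and contralateral oviducts were then set side by side within pregnant and within cyclic mares. For CFTR the difference was −0.09 ± 0.20 for PI minus PC, with a 95% interval of −0.50 to 0.32, and 0.00 ± 0.20 for CI minus CC, with an interval of −0.41 to 0.42. By number, PI was above PC in 2 of 5 pairs for CFTR. The difference was −0.02 ± 0.26 for ANO1 for PI minus PC and −0.03 ± 0.26 for CI minus CC. For SLC12A2 it was −0.13 ± 0.19 and −0.06 ± 0.19, for ATP1B1 −0.25 ± 0.22 and 0.02 ± 0.22, and for SCNN1A −0.11 ± 0.26 and 0.19 ± 0.26 in the same comparisons. These fits did not pair libraries by number. PI was below PC in 4 of 5 pairs for ATP1B1 and in 3 of 5 for SLC12A2, SCNN1A and ANO1, counts not taken over all genes. AQP5 had −0.20 ± 0.52 and −0.06 ± 0.52 in the same fit without pairing. Within the numbers that pair the pregnant libraries, the AQP5 differences of PI minus PC were −0.79, 0.20, −0.05, −0.32 and −0.06 for numbers 1 to 5, and with the replicate block −0.20 had adjusted p = 0.834 (limma). With that block, which pairs libraries by number, CFTR had adjusted p = 0.857 and SCNN1A adjusted p = 0.823 for PI against PC (limma). The interaction of pregnancy and side was −0.10 ± 0.28 for CFTR, with an interval of −0.68 to 0.48. Limma called 0% of all genes for either comparison of sides and for the interaction, with 112, 42 and 47 at an unadjusted p under 0.05. With the block these were 464, 240 and 267, and limma called 0. EdgeR and DESeq2 also called 0 in each, with 77 and 83, 50 and 55, and 41 and 49 unadjusted.

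SCNN1G had the largest difference between sides among the 7 genes, at few reads. Its PC libraries held 5 to 13 reads of it, and 2 of 5 were above 1 CPM, against 5 of 5 in PI. PI was above PC in all 5 numbers, by log2 differences of 0.06 to 1.66, and the fitted difference was 0.83 ± 0.36, which did not pass (limma, adjusted p = 0.999). How many of all genes were higher, or lower, in all 5 numbers was not counted. In this fit without pairing, SCNN1G was the only one of the 7 at an unadjusted p under 0.05 in either comparison of sides. At that level 0.361% of all genes were higher and 0.402% lower for PI against PC, and 0.177% higher and 0.109% lower for CI against CC. For the interaction 0 of 7 were at that level, with 0.184% of all genes higher and 0.136% lower. The groups of each of the 7 genes overlapped between sides, while in pregnant mares 0.0885% of all genes had every PI library below every PC library and 0.0476% every one above, and in cyclic mares 0.0408% and 0.0272% did so for CI and CC. Without PI1, PI4 and CI3, which hold fewer reads than any other library but CC4, the SCNN1G difference for PI minus PC was 0.44. In the cyclic mares SCNN1G differed by 0.38 ± 0.36 for CI minus CC, CI being higher in 3 of 5 numbers.

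**Figure D3:**
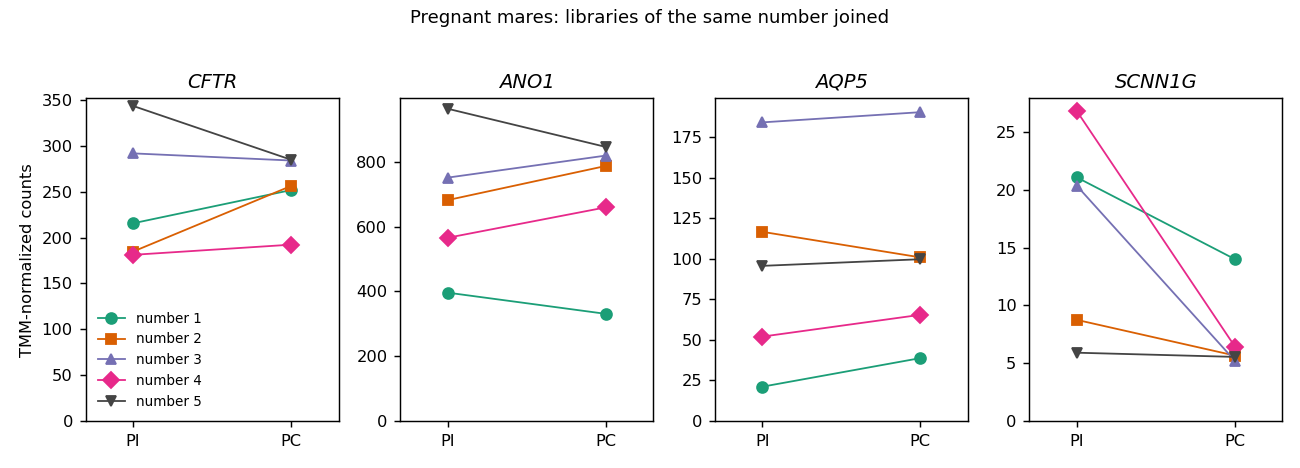
TMM-normalized counts (y axes, starting at 0) of CFTR, ANO1, AQP5 and SCNN1G in the pregnant mares, ipsilateral (PI) at left and contralateral (PC) at right, with libraries of the same number joined. The order of the numbers is the same on both sides for ANO1 and AQP5, while SCNN1G is higher in PI in all 5 numbers, at 5.91 to 26.8 against 5.20 to 14.0 in PC. How many of all genes were so was not counted.

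Other genes of the same transport systems were read from 8 lists that include the 9 genes. Beyond the 7 genes above, 81 listed genes passed the filter, and limma called 0 of them in each comparison. For PI against CI, 35 were higher and 46 lower, with a median log2 difference of −0.04, and for PC against CC 41 were higher and 40 lower, with a median of 0.01. Over all genes the medians were −0.01 and 0.01, and 51.9% and 48.2% of them were lower. For PI against PC 20 were higher and 61 lower, with a median of −0.12, whereas the median of all genes was −0.03 and 55.4% of all genes were lower. For CI against CC 31 were higher and 50 lower, with a median of −0.04 against 0.01 for all genes, of which 48.6% were lower.

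Among anion channels and exchangers (11 kept), 7 were lower and 4 higher for PI against CI, and 9 lower and 2 higher for PC against CC. Of all genes, 51.9% and 48.2% were lower in these comparisons. The counts of the list include CFTR and ANO1, lower in both comparisons, so they are not separate from the set. ANO6, a scramblase of the anoctamin family, averaged 1139 ± 256 in PI and 1310 ± 343 in CI, while CLCN3, a chloride and proton exchanger of endosomes, had 705 ± 97.9 in PI and 845 ± 170 in CI. The sulfate transporter SLC26A2 was among the genes with the smallest p for PC against CC, at 184 ± 63.0 in PC and 131 ± 15.3 normalized counts in CC (log2 difference 0.43 ± 0.19). SLC26A9 and CLCA1, other chloride transport genes of airways, were below the filter.

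Basolateral carriers (17 kept) were split, with 10 lower and 7 higher for PI against CI, SLC12A2 and ATP1B1 of the set being among the lower. Of all genes, 51.9% were lower in that comparison. SLC12A4, a potassium and chloride cotransporter, averaged 2252 ± 553 in PI libraries and 1660 ± 402 in CI libraries; the log2 difference of 0.44 ± 0.18 did not pass (limma, adjusted p = 0.999). Its relative SLC12A7 averaged 2740 ± 578 in PI and 2958 ± 546 in CI.

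Potassium channels (10 kept), which hold the voltage that drives chloride out, included KCNMA1, the large-conductance calcium-activated channel. KCNMA1 averaged 181 ± 54.2 in PC and 296 ± 57.5 in CC, a log2 difference of −0.73 ± 0.19 (limma, adjusted p = 0.899), and 190 ± 33.8 in PI and 234 ± 36.9 in CI. KCNMA1 is also read in smooth muscle, whose 6 markers summed to 642.5 to 936.3 in PI, 728 to 1984 in PC, 564 to 1129 in CI and 691 to 1764 in CC, and their part was not tested. KCNK5, a two-pore potassium channel, had every PC library above every CC library, at 74.5 ± 18.6 in PC and 42.6 ± 13.3 in CC (limma, adjusted p = 1), as 0.313% of all genes were. In PI it averaged 48.9 ± 15.9, and in CI 47.1 ± 17.3. KCNJ16 and KCNK1, the next most read, averaged 101 ± 52.0 in PI and 154 ± 94.2 in CI, and 77.2 ± 30.2 in PI and 94.8 ± 44.8 in CI. KCNN4, a calcium-activated channel, was near the floor in all groups, at 6.10 ± 2.77 in PC and 2.56 ± 3.10 in CC.

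Regulators of the sodium channel (17 kept with SCNN1A and SCNN1G) included the ubiquitin ligases that remove it from the membrane, which stood in opposite order. NEDD4L averaged 2021 ± 335 in PI and 1639 ± 240 in CI, and 2089 ± 166 in PC and 1632 ± 452 in CC, with log2 differences of 0.30 ± 0.16 and 0.39 ± 0.16. NEDD4 averaged 75.7 ± 18.0 in PI and 128 ± 32.0 in CI, and 88.9 ± 29.1 in PC and 122 ± 16.5 in CC, with log2 differences of −0.72 ± 0.23 and −0.51 ± 0.23. None passed (limma, adjusted p = 0.999 and adjusted p = 1 for each gene). The kinase WNK1 averaged 3278 ± 223 in PI and 3365 ± 188 in CI, while for the protease inhibitor SPINT2 they were 1223 ± 189 in PI and 1328 ± 216 in CI. The kinase STK39, which activates SLC12A2 by phosphorylation, averaged 199 ± 39.1 in PI and 142 ± 19.9 in PC. The enzyme that inactivates cortisol, listed as 11-HSD2, averaged 12.1 ± 6.13 in CI and 21.4 ± 8.58 in CC.

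Of the water channels (7 kept), AQP9, which also passes small solutes, was the most read, at 880 ± 543 in PI and 1743 ± 442 in CI and at 979 ± 597 in PC and 1821 ± 842 in CC. Its log2 differences were −1.31 ± 0.56 and −1.10 ± 0.56 and did not pass (limma, adjusted p = 0.999 and adjusted p = 1). AQP1 averaged 321 ± 168 in PI and 412 ± 332 in CI, and AQP3 247 ± 109 in PI and 274 ± 78.8 in CI. AQP4 averaged 18.6 ± 5.02 in PC and 9.50 ± 5.60 in CC. AQP6, a neighbour of AQP5 in the same gene table, was near the floor, at 9.58 ± 5.71 in PI and 3.07 ± 1.43 in CI, and at 4.07 ± 2.96 in PC and 7.33 ± 3.91 in CC.

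Among carbonic anhydrases and acid transporters (7 kept), CA2, the cytosolic enzyme, averaged 16.9 ± 8.61 in PI and 48.4 ± 39.6 in CI, and 21.5 ± 6.55 in PC and 63.7 ± 50.2 in CC. Its log2 differences of −1.09 ± 0.62 and −0.92 ± 0.62 were within the spread between libraries. ATP12A, a proton and potassium pump of airway epithelium, stood in the other order, at 32.2 ± 24.6 in PI and 7.65 ± 10.8 in CI and at 35.0 ± 24.3 in PC and 12.3 ± 12.6 in CC (log2 differences 1.73 ± 0.80 and 1.22 ± 0.80). It ranged from 0 to 44 reads in the CI libraries. CA11, a catalytically inactive relative, averaged 83.8 ± 24.0 in PC and 153 ± 82.2 in CC, and CA9 56.7 ± 23.4 in PI and 46.0 ± 2.89 in CI. ATP6V1A, a subunit of the vacuolar proton pump, averaged 279 ± 66.5 in PI and 311 ± 82.4 in CI.

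Genes of CFTR regulation (18 kept) stood close to 0, with medians of −0.02 for PI against CI and 0.03 for PC against CC. At an unadjusted p under 0.05 there were 0 of 18 in either, where 514 and 669 of all 14692 genes were, a share at which 0 of 18 is near the background. The anchor protein EZR averaged 7603 ± 842 in PI and 6739 ± 1637 in CI, the adenylyl cyclase ADCY6 1641 ± 193 in PI and 1686 ± 282 in CI, and AHCYL1, a cofactor that activates CFTR and bicarbonate carriers, 1430 ± 395 in PI and 1631 ± 304 in CI. PRKACB, a catalytic subunit of protein kinase A, averaged 143 ± 52.8 in PI and 191 ± 49.1 in PC. Ionocytes, the rare cells that carry much of CFTR in the airways, were looked for by the 7 genes of their list that the table holds. Of these, 6 were below the filter (FOXI1, ASCL3, ATP6V1B1, HEPACAM2, BSND and STAP1), with at most 7 reads in a library, while ATP6V0D2 averaged 571 ± 214 in PI and 571 ± 178 in CI.

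**Figure D4:**
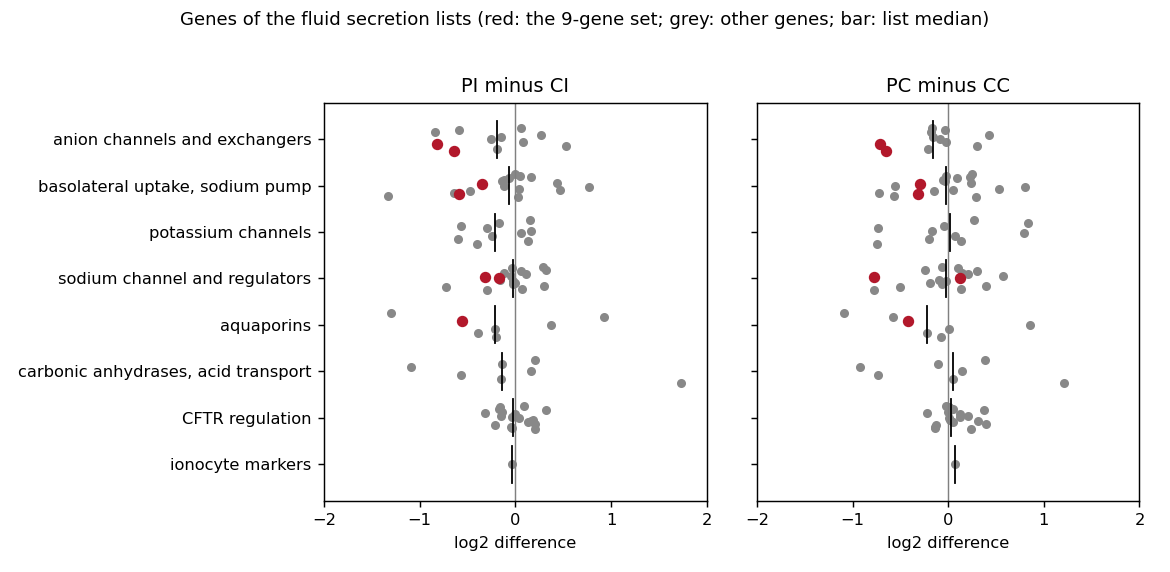
Log2 differences (x axes) of the genes that passed the filter in each of the 8 lists, for PI minus CI at left and PC minus CC at right. Red points are genes of the 9-gene set, grey points the other listed genes and black bars list medians; CFTR and ANO1 are the red points of the first row, at −0.82 and −0.64 at left and −0.72 and −0.65 at right.

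Genes like CFTR were taken as those with the steadiest ratio to it over the 20 libraries. They were RSRP1, RAPGEF4, PPP1R13B, AHI1 and MBLAC2, with a standard deviation of the log2 ratio of 0.27, 0.28, 0.28, 0.29 and 0.31. All 5 had lower means in the pregnant groups, which a choice by likeness to CFTR over the same libraries brings with it. RAPGEF4, an exchange factor that cyclic AMP activates directly, averaged 173 ± 53.3 in PI and 245 ± 54.3 in CI, and 135 ± 30.0 in PC and 259 ± 81.0 in CC. PPP1R13B averaged 564 ± 127 in PI and 839 ± 244 in CI, and 568 ± 113 in PC and 748 ± 114 in CC. AHI1, a protein of the ciliary base, averaged 402 ± 97.4 in PI and 556 ± 82.5 in CI, and 398 ± 93.0 in PC and 567 ± 24.4 in CC. Within the set, ATP1B1 ranked 248th, ANO1 494th, SLC12A2 696th, SCNN1A 6100th, SCNN1G 10945th and AQP5 12739th by the same measure. A gene's own spread enters these ranks, so they are not ranks of correlation with CFTR.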

How the data were processed

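Per the submitters' processing notes CASAVA 1.8 was used. Aligner, read counter, strand setting, genome build and annotation: not given in the sources used here. Overlapping and antisense genes may therefore share reads. Libraries came from a stranded total RNA kit with ribosomal RNA depletion, per the labels' protocols, while the molecule label names polyA RNA. The authors deposited TMM-normalized counts, a signal per gene and library; 100% of the values were whole multiples of the smallest value of their library, within 0.01 reads, and the whole reads were recovered from them. The members of the set and the lists were chosen with earlier results of these data known.

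Of 26740 features, 20350 had reads and 14692 had over 1 CPM in at least 5 libraries. One limma model (3.58.1, R 4.3.3) of 4 group means was fitted to log2(value + 3.03), a pseudocount of 0.5 CPM, over all 20 libraries, with empirical Bayes moderation (trend, robust), tests being 2-sided and p adjusted by Benjamini-Hochberg over all genes kept, with calls at 0.05. Folds on this scale understate changes of low genes. The procedure was run on simulated data in which libraries were drawn independently of each other, unlike the pregnant libraries here. That run therefore does not show how the procedure performs on these data. EdgeR (4.0.16) and DESeq2 (1.42.0) on the recovered reads were alternatives. The labels speak of biological replicates without naming mares, so p-values measure the spread between these samples.

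The 9 genes are named whatever their p. Of other listed genes those named are the 8 with the smallest p in each pregnancy comparison, the 4 in each comparison of sides and the 3 most read of each list, except some that are not reported here; genes like CFTR are the 5 with the steadiest log2 ratio. SLC26A9, CLCA1, CDH1 and the ionocyte genes fall outside that rule and were named after their values were seen. Listed genes were matched by symbol, and HSD11B2 and SLC9A2 through a synonym in the RefSeq gene table; KRT8 and KRT18 were not analysed here. No transcript lengths were used, so levels are not compared between genes. Same-numbered libraries deviated together in pregnant mares (PI with PC, correlations of 0.53 to 0.70 over genes, as a check of pairing), but not in each pair of cyclic mares (−0.04 to 0.68).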

Additional observations from a re-analysis of the deposited data

Results flagged for a closer look

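In 31 group and gene combinations the highest or lowest library was set against the other 4, and 4 stood apart by Dixon's criterion, which chance meets in about 1 of 20 groups. SCNN1G in PC1 was at 14.0 normalized counts, apart from the other PC libraries. AQP5 in CC1 was at 328, above the other CC libraries. CA12 was at 3.89 in PI2 and at 4.71 in PC2, with 4 and 5 reads. It had 0 reads in 4 of 5 PI and 3 of 5 PC libraries, so the rate of 1 of 20 does not hold for these 2.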

How the results depend on the processing

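Limma called 0 genes in each of the 5 comparisons, and this held under all 29 alternatives except for PC against CC, with 6 calls by DESeq2 and 1 on CPM without TMM; the cause was not tested. No member was called under any of them. Of 404 alternative values for the pregnancy differences of the 7 genes, 403 kept their direction. Leaving out 1 library at a time, SCNN1A for PC minus CC ran from −0.087 to 0.249. All other turns concerned differences between sides or the interaction, where the main values were near 0. Leaving out 1 library, these ran for PI minus PC from −0.23 to 0.00 for CFTR, −0.225 to 0.001 for SCNN1A, −0.52 to 0.22 for AQP5 and −0.27 to 0.15 for ANO1. For CI minus CC they ran from −0.086 to 0.105 for CFTR, −0.024 to 0.368 for SCNN1A, −0.10 to 0.12 for ATP1B1, −0.26 to 0.30 for AQP5 and −0.19 to 0.12 for ANO1. For the interaction they ran from −0.220 to 0.037 for SLC12A2, −0.51 to 0.28 for AQP5 and −0.23 to 0.19 for ANO1. Without PI1, PI4 and CI3, CFTR was at 0.073 for PI minus PC, −0.021 for CI minus CC and 0.094 for the interaction; SLC12A2 at 0.024 and AQP5 at 0.53 and ANO1 at 0.27 for PI minus PC, AQP5 at 0.25 for CI minus CC, and SLC12A2 at 0.038 and AQP5 at 0.28 for the interaction. On CPM without TMM, CFTR was at −0.07 and ATP1B1 at −0.052 for CI minus CC. By edgeR and DESeq2 the interaction of AQP5 was 0.18 and 0.18, and by DESeq2 ANO1 was at 0.01 for PI minus PC. With the replicate block, fitted by number, CFTR had adjusted p = 0.162 for PI against CI and adjusted p = 0.297 for PC against CC (limma). The differences stayed at −0.82 and −0.72, and the block changed no call, with 0 genes called. In these 2 comparisons the block joined pregnant with cyclic libraries of the same number. Their correlations over genes were −0.15 to 0.59 for PI with CI and −0.40 to 0.49 for PC with CC. The data thus give little basis for that block, and its smaller p-values are no stronger evidence. The 28 group means on CPM without TMM moved by less than 1 SD. Genes with few reads (SCNN1B, CA12, SCNN1G) are limited by depth.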
